A study of Rattus norvegicus with 4 samples.

Results

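Ribosomal proteins are the protein subunits that, with ribosomal RNA, build the large (Rpl genes) and small (Rps genes) subunits of the ribosome, and nucleophosmin, encoded by Npm1, is an abundant nucleolar chaperone that takes part in ribosome assembly and export. Their transcripts were followed here in rat liver after ligation of the common bile duct. Members were all probes whose single gene symbol in the array platform's annotation begins with Rpl or Rps and a digit (S6 kinases, Rps6k, left out), together with Npm1. The rule found 16 of the 1936 probes on the array, which stood for 11 of the 958 named genes tested. Of these, 10 were counted as ribosomal protein genes, among them Rpl17-ps16, which RefSeq lists as a pseudogene. Of the 11 genes, 4 had more than 1 probe.

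The ligated group consisted of male Sprague-Dawley rats of 250 to 300 g whose common bile duct was tied, so that bile no longer reached the intestine, and whose right lateral liver lobe was taken 12 h later. In the sham group the duct was laid bare without being tied, and the liver was taken at the same time. Before labelling, RNA from 3 rats per group was combined, and the labels do not say whether the 4 arrays repeat 1 pair of pools. Each of 4 two-colour cDNA arrays carried both groups, with ligation in Cy5 and sham in Cy3 on arrays 1 and 3, and ligation in Cy3 and sham in Cy5 on arrays 2 and 4. The p-values below measure only the spread between the arrays, which may be technical, and say nothing of the spread between rats. The number of arrays limits the precision. In whole liver RNA, fewer cells of a type and less RNA per cell cannot be told apart.

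All values are log2 ratios of ligation over sham. That direction is likely from the order of the channels in the labels but is not stated, and neither is the base of the logarithm, which was taken as 2. Two-colour ratios give no level of a transcript, so neither the liver label nor the abundance of any member could be checked. Over all 1936 probes, arrays of the same dye orientation correlated at 0.93 and 0.94, and arrays of opposite orientation at between -0.45 and -0.28.

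As background, ribosomal proteins are made in equal numbers for each ribosome, and their mRNAs belong to the most abundant of a cell. In mammals most of them begin with a stretch of C and T at the cap, the 5′ terminal oligopyrimidine tract, through which growth signals acting on mTOR control how strongly they are translated. Npm1 also binds the ARF tumour suppressor and histones, and is often raised in growing cells.

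RefSeq (GRCr8) gave the sequence around the annotated start for 10 of the 11 genes. It is shown for the genes that passed the test below, other than the pseudogene, and for the 3 others with the longest run of C and T. The window holds 25 bases before the start and 15 from the start on. Capitals mark an unbroken run of C and T of at least 6 bases that overlaps the stretch from 10 bases before to 15 bases into the transcript.
Npm1, chr10:18255727-18255766, minus strand: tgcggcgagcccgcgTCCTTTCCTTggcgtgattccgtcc
Rpl6, chr12:41011676-41011715, minus strand: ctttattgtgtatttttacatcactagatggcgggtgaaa
Rpl41, chr7:1563483-1563522, minus strand: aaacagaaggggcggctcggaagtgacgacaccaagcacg
Rpl4, chr8:73566452-73566491, plus strand: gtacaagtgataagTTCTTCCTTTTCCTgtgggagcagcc
Rps3, chr1:163195762-163195801, minus strand: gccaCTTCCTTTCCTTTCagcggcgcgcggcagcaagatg
Rpl35a, chr11:81235007-81235046, minus strand: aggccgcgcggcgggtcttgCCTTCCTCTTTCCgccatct
Such a run was found in 7 of the 10 genes (Npm1, Rpl4, Rps3, Rpl35a, Rps28, Rpl17 and Rpl12), against 32% of all 33469 promoters in the table. Npm1 holds a run of 10 bases, while the longest runs at this place are 5 bases for Rpl6 and 3 for Rpl41. The runs of Npm1 and Rps3 end before the annotated start, and that of Rps28 begins at base 5 of the transcript. A counted run is therefore not the same as a tract at the cap. A missing run says only that these letters are not in the window. The annotated start may not be where the transcript begins, and in Rpl6 the letters atg follow almost directly on it. Whether any of the 10 genes, Rpl6 and Rpl41 among them, has a tract at the cap was not tested.

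With the ratios read as ligation over sham, Npm1 stood highest of the members. In the values as deposited its probe was at 0.33, 0.41, 0.32 and 0.32 on arrays 1 to 4, so on that reading it was higher in the ligated group on each array, whichever dye the ligated RNA carried. Among the 1174 features tested, 1.79% were above 0 on all 4 arrays in the deposited values, and the only members among them were Npm1 and Rpl6. The SD of Npm1 over the 4 arrays was 0.043, the 20th smallest of all features, against a median of 0.75. Relative to the median of each array, Npm1 was at 1.58, -0.017, 1.28 and 0.062. It was then clearly above 0 where ligation was in Cy5 and near 0 where ligation was in Cy3. With a dye term in the limma fit, Npm1 rose 1.65-fold (log2 0.73 ± 0.08, SE, 4 arrays, adjusted p = 1.44e-05), rank 9 of the 958 genes from the top, against rank 122 if the table were Cy5 over Cy3. Without centring the difference was 0.34 ± 0.09 and also passed (adjusted p = 0.00366).

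**Figure D1:**
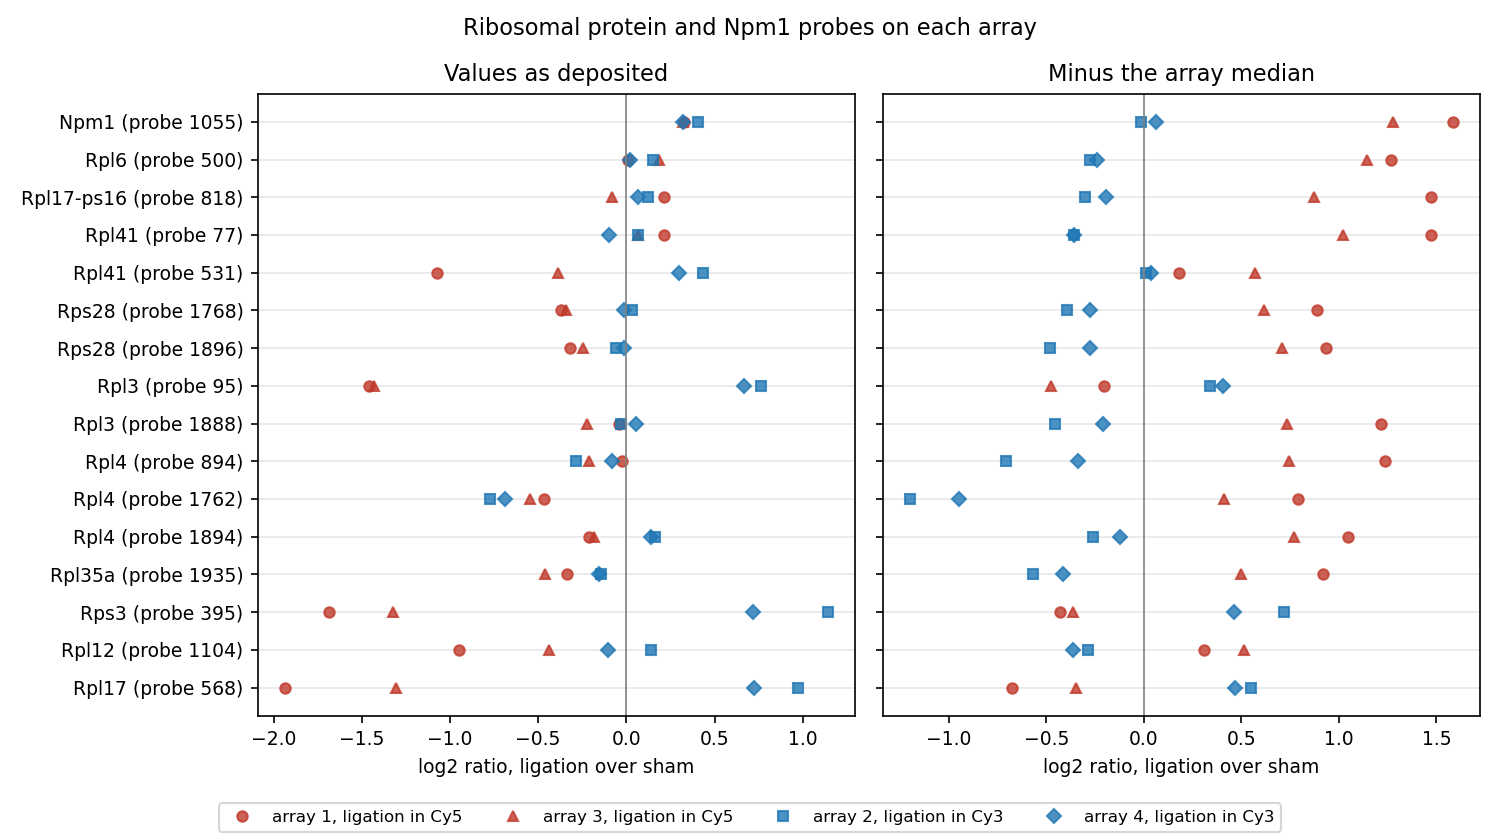
Log2 ratio of ligation over sham of each of the 16 member probes on the 4 arrays, as deposited on the left and minus the array median on the right, with ligation in Cy5 in red and ligation in Cy3 in blue. The 4 deposited Npm1 points lie together between 0.32 and 0.41, while the deposited Rps3 and Rpl17 points split by dye.

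Relative to the array median, 10 of the 11 member genes lay above 0, against 46.7% of all features. Of the 11, 4 passed the limma test as higher at a Benjamini-Hochberg adjusted p under 0.05, none as lower and 7 did not pass. In the same fit 28.6% of all features were called, 12% higher and 16.6% lower. The members' median was 0.17, against -0.013 for all features. The members were chosen with earlier results known, so the count is a description.

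Among the large-subunit proteins, Rpl6 was at 1.27, -0.27, 1.14 and -0.24 on arrays 1 to 4 after centring. It was high where ligation was in Cy5 and low where ligation was in Cy3, and the fit gave 0.47 ± 0.07 (adjusted p = 0.000268). As deposited, Rpl6 was at 0.0090, 0.15, 0.19 and 0.022, above 0 on each array but small, and did not pass (0.09 ± 0.09, adjusted p = 0.340). The probe named for Rpl17-ps16, which RefSeq lists as a pseudogene, was at 1.47, -0.30, 0.87 and -0.19 after centring, with a fitted difference of 0.46 ± 0.09 (adjusted p = 0.00222). As deposited it was at 0.21, 0.13, -0.084 and 0.068 and did not pass (0.08 ± 0.09, adjusted p = 0.416). A cDNA probe cannot tell a processed pseudogene from the gene it was copied from, so which transcript this spot measured is uncertain.

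Rpl17 itself, a protein at the exit of the tunnel through which the new peptide leaves the ribosome, had a probe of its own. It was at -0.68, 0.55, -0.35 and 0.47 after centring, the opposite dye pattern of Rpl17-ps16, and the fitted difference was -0.0027 ± 0.08 (adjusted p = 0.982). The difference between the 2 probes was 2.15, -0.85, 1.22 and -0.66 on arrays 1 to 4, so neither was higher on every array.

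Rpl41, a basic peptide that is among the smallest proteins of the cell, was measured by 2 probes. Probe 77 was at 1.47, -0.36, 1.02 and -0.36 after centring and probe 531 at 0.18, 0.011, 0.57 and 0.037. Probe 531 was the 1 member probe of 16 above 0 on all 4 centred arrays, while probe 77 split by dye. After probes were averaged by gene, Rpl41 was above 0 on 2 arrays and no member on all 4, against 5.45% of all features. Fitted alone, probe 77 was at 0.44 ± 0.09 (adjusted p = 0.00159) and probe 531 at 0.20 ± 0.09 (adjusted p = 0.111). The gene's average was 0.32 ± 0.07 after centring (adjusted p = 0.00394) and -0.06 ± 0.09 as deposited (adjusted p = 0.546).

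Rpl4, which lines the narrow part of the exit tunnel, gave 3 probes that did not go together. Probe 894 was fitted at 0.23 ± 0.10, probe 1894 at 0.36 ± 0.08 and probe 1762 at -0.24 ± 0.09, of which probe 1894 passed (adjusted p = 0.00443). Probe 1894 exceeded probe 1762 by 0.26, 0.94, 0.36 and 0.83 on arrays 1 to 4, and probe 894 exceeded it by 0.44, 0.49, 0.34 and 0.61. Both differences had 1 sign on all 4 arrays and do not depend on a zero point shared by the whole array. The 3 probes lie in different print blocks, so a zero set for each block could change the differences. Read as Cy5 over Cy3, both differences would be above 0 on 2 arrays only. An exact two-sided sign-flip permutation test over 4 arrays cannot give a p below 0.125. The gene's average was 0.12 ± 0.08 (adjusted p = 0.376). Probe 1762 did not pass after centring (adjusted p = 0.0646), and as deposited all 3 probes were below 0, at -0.15 (probe 894), -0.62 (probe 1762) and -0.023 (probe 1894).

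Rpl3, a core protein near the peptidyl transferase centre, also had 2 unlike probes. Probe 1888 was at 1.22, -0.46, 0.73 and -0.21 after centring, with a fitted 0.32 ± 0.09 (adjusted p = 0.0183), and probe 95 at -0.20, 0.34, -0.47 and 0.41, with a fitted 0.017 ± 0.08 (adjusted p = 0.939). The dye pattern of the second ran opposite to that of the first. The gene's average was 0.17 ± 0.08 (adjusted p = 0.156). Rpl12, part of the base of the stalk that binds translation factors, was at 0.043 ± 0.07 (adjusted p = 0.761), and Rpl35a, another large-subunit protein, at 0.11 ± 0.08 (adjusted p = 0.429).

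Of the small-subunit proteins, Rps28 was measured by 2 probes that went together, at 0.21 ± 0.08 and 0.22 ± 0.08, and their difference was between -0.089 and 0.094 on the arrays. The gene was at 0.91, -0.44, 0.66 and -0.28 after centring, with a fitted 0.21 ± 0.08 (adjusted p = 0.0549). It passed as higher in 7 of 17 alternative settings, among them print-block centring (0.32, adjusted p = 0.00391) and the fit without array 3 (0.28, adjusted p = 0.0372). Rps3, which lies at the entry of the mRNA channel, was at -0.43, 0.72, -0.37 and 0.46, with a fitted 0.10 ± 0.08 (adjusted p = 0.433). Counted by probe, 6 of the 16 member probes passed as higher and none as lower, against 27.9% called among the 1648 probes tested, 11.8% higher and 16.1% lower.

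**Figure D2:**
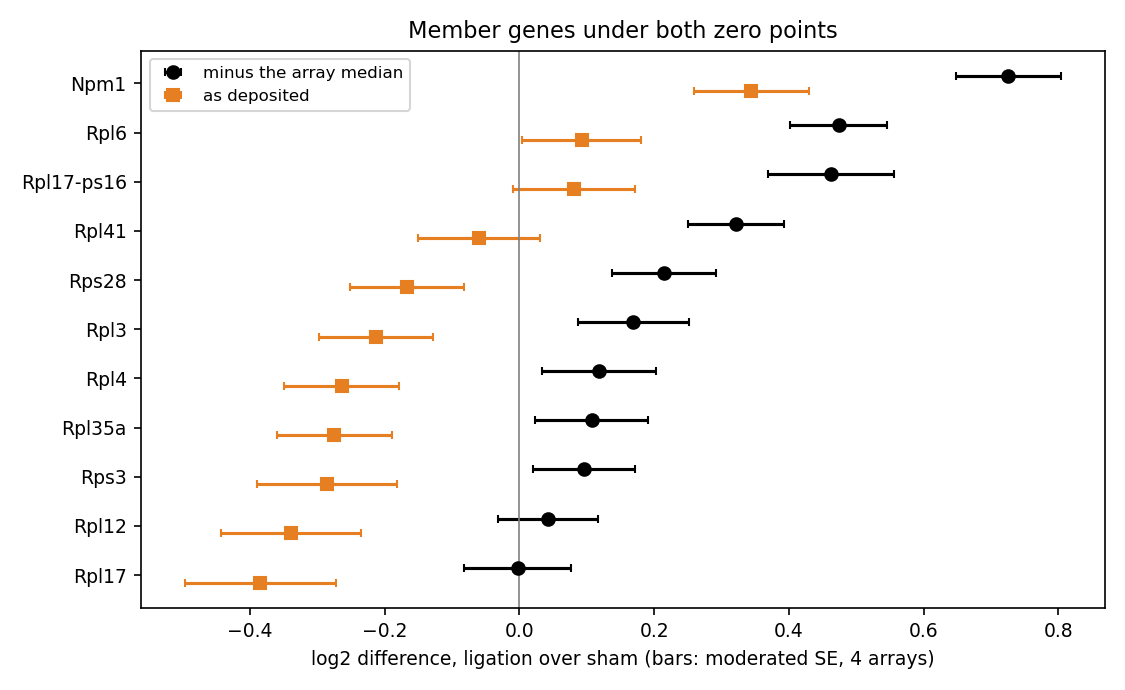
Fitted log2 difference, ligation over sham, of the 11 member genes, in black relative to the array median and in orange as deposited, with bars of 1 moderated SE over 4 arrays. Npm1 lies above 0 on both scales (0.73 and 0.34), while Rpl41 lies at 0.32 on one and at -0.06 on the other.

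The zero point decided the sign for 7 of the 10 ribosomal protein genes. Without centring, Npm1 alone passed as higher, 6 members passed as lower (Rpl3, Rpl4, Rpl35a, Rps3, Rpl12 and Rpl17, from -0.38 to -0.21) and 4 did not pass. On that scale 83.9% of all features were called, 1.7% higher and 82.2% lower, and the median was -0.21 for the members and -0.39 for all features. Below 0 on all 4 arrays as deposited were Rps28, Rpl4 and Rpl35a, 3 of the 11 members, and 28.4% of all features.

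The layout of the slide repeated in 16 print blocks of 121 positions, with 18 positions that carried no name in any block. The 48 spots at positions 89 to 91 averaged -0.0027, 0.0049, -0.0020 and 0.0014 on arrays 1 to 4, so the deposited zero lay at the level of these spots on every array. The array medians in the same values were -1.26, 0.43, -0.96 and 0.26. The 96 spots at positions 111 to 116 were at -1.92, 1.21, -1.83 and 1.04, which gives a mean of -0.38 and a strong dependence on the dye. The labels do not say what was spotted at any of these positions.

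The members lay at different distances from these unnamed spots. Npm1 lay above positions 89 to 91 on each array as deposited. It was nearest to the unnamed positions 108 to 110, which were themselves above 0 on each array (0.68, 0.39, 0.55 and 0.40). Rps3, as deposited at -1.69, 1.14, -1.32 and 0.72, and Rpl17, at -1.93, 0.97, -1.30 and 0.73, had a root mean square difference of 0.33 each to positions 111 to 116 over the 4 arrays, and of 0.20 and 0.21 to positions 102 to 104. Rpl6 and Rpl17-ps16 differed from positions 89 to 91 by 0.12 and 0.13, and from positions 111 to 116 by 1.58 and 1.56. Rpl4, Rps28 and Rpl35a, as deposited at -0.26, -0.17 and -0.27, were likewise nearest to positions 89 to 91. Their 4 arrays had an SD of 0.050, 0.18 and 0.15, against 1.42 for Rps3 and 1.45 for Rpl17.

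The dye term of the fit is the part of a ratio that turned with the labelling. After centring it was above 0 for 13 of the 16 member probes, against 57.3% of all probes tested, and ran from -0.51 for Rpl17 to 0.84 for Rpl4 probe 1762. Of the member genes, 6 of 11 lay in the upper quartile of that term over all features. In that quartile, 20.1% of features were called higher and 97 of 294 lower, and the median difference was -0.059. Relative to the probes of that quartile, an alternative chosen after seeing the data, Npm1 was at 0.80, Rpl6 at 0.55, Rpl17-ps16 at 0.54, Rpl41 at 0.39 and Rps28 at 0.29, and these 5 passed (adjusted p from 0.000188 to 0.0287). Under that choice 23.9% of all features were called, 13.2% higher and 10.6% lower.

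**Figure D3:**
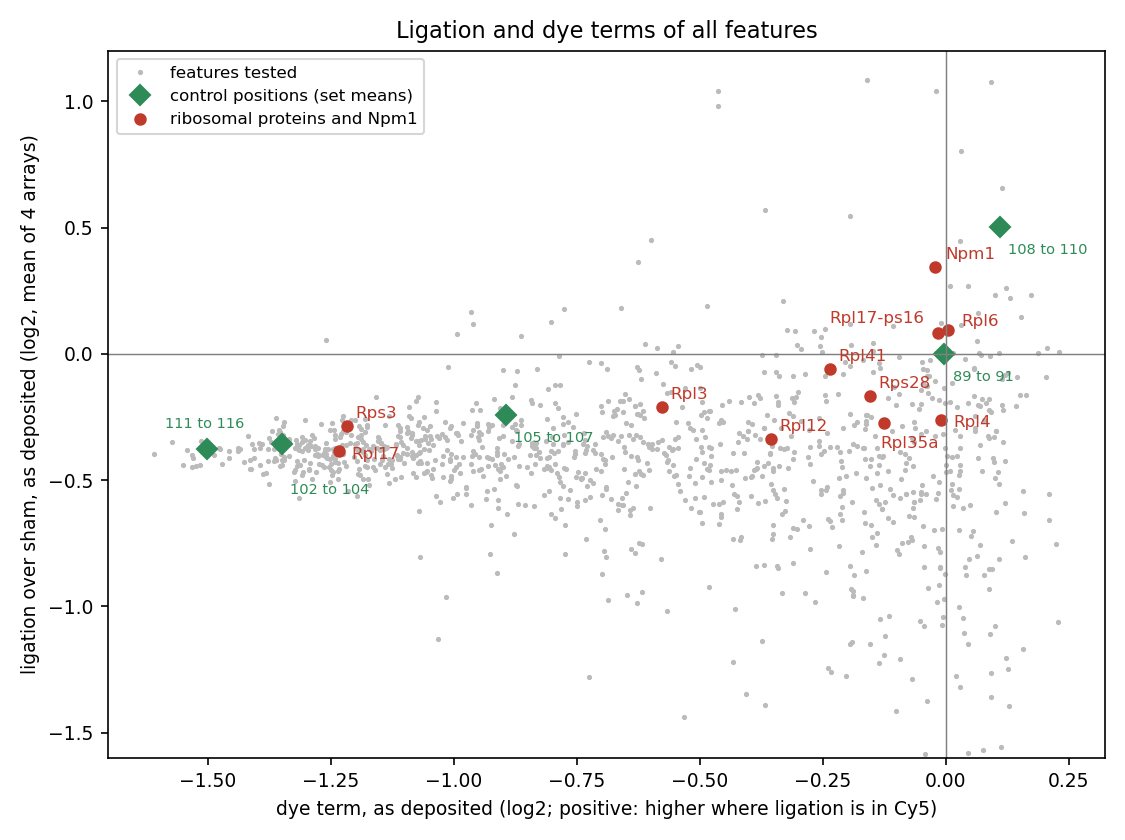
Ligation over sham as deposited (vertical, log2, mean of 4 arrays) against the dye term as deposited (horizontal, log2) for the 1174 features tested in grey, the member genes in red and the mean of each set of unnamed control positions in green, with 10 features beyond the vertical range. Rpl6 and Rpl17-ps16 lie beside positions 89 to 91, Npm1 lies between those and positions 108 to 110, and Rps3 and Rpl17 lie near positions 102 to 104.

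Differences between members within an array do not depend on a zero point shared by the whole array. They do depend on the direction of the ratio and on a zero set for each print block. With print-block centring Npm1 was at 0.76, Rpl17-ps16 at 0.35 and Rpl35a at 0.26, against 0.73, 0.46 and 0.11 with array medians. Npm1 exceeded Rpl6 by 0.32, 0.26, 0.13 and 0.30 on arrays 1 to 4, Rpl4 by 0.56, 0.71, 0.63 and 0.53, and Rpl35a by 0.66, 0.55, 0.78 and 0.48. It exceeded 7 of the 10 ribosomal protein genes on all 4 arrays, by a mean of 0.25 (Rpl6) to 0.68 (Rpl12). Rpl3 was exceeded on 3 arrays, and Rps3 and Rpl17 on the 2 with ligation in Cy5. Read as Cy5 over Cy3, Npm1 would exceed 2 of the 10 on all 4 arrays (Rps3 and Rpl17) and none of those 7, and Npm1 minus Rpl4 would be 0.56, -0.71, 0.63 and -0.53. Each such difference can reach no exact p below 0.125, and Npm1 was set first after its values were known.

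**Figure D4:**
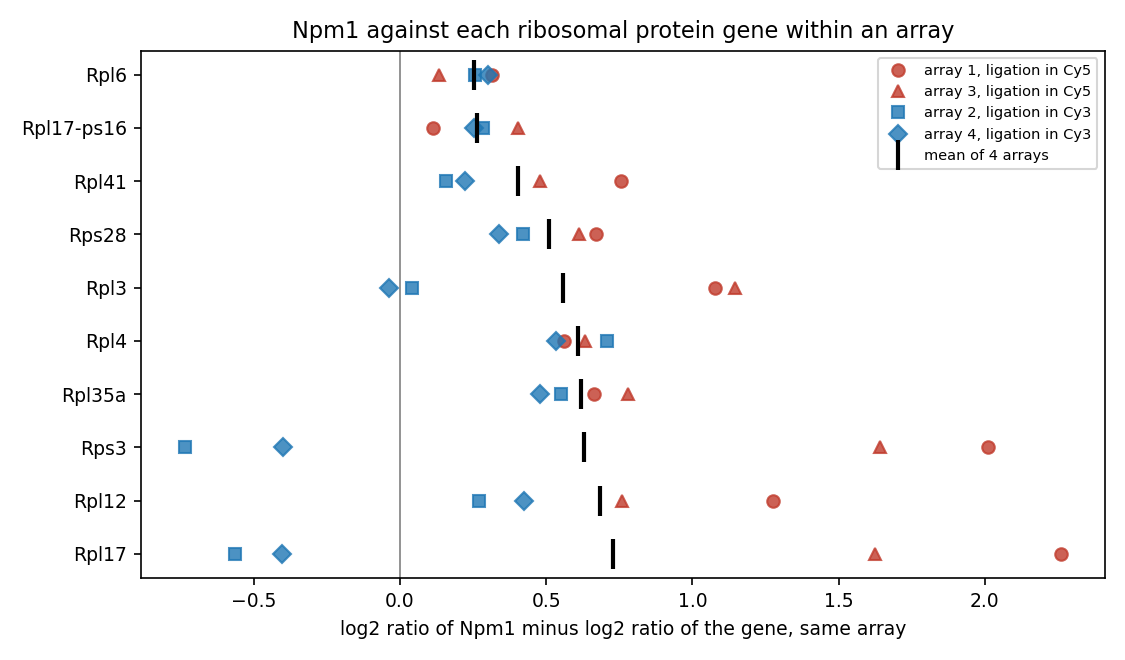
Log2 ratio of Npm1 minus that of each ribosomal protein gene on the same array, with ligation in Cy5 in red, ligation in Cy3 in blue and the mean of 4 arrays as a black bar. The points for Rpl4 lie between 0.53 and 0.71, while those for Rps3 and Rpl17 lie on both sides of 0 by dye.

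If the table were Cy5 over Cy3 instead, 8 member genes would be higher and 2 lower after centring (Rps3 at -0.49 and Rpl17 at -0.51), where 78.8% of all features would be called, 45.4% higher and 33.4% lower. Npm1 would then be at 0.70, Rpl6 at 0.73, Rpl17-ps16 at 0.71 and Rpl41 at 0.49, so these 4 members would be higher on either reading once centred. Npm1 would then lie below Rpl6, Rpl4 (0.71) and Rpl17-ps16. On that reading without centring, the difference of a gene is its deposited dye term. It is -0.022 for Npm1, 0.0058 for Rpl6, -0.016 for Rpl17-ps16 and -0.24 for Rpl41.

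Few other genes of the ribosome pathway were on the array. Rack1, a scaffold of the small subunit whose symbol the rule does not take, was at 0.32 ± 0.10 (adjusted p = 0.0273). No mitochondrial ribosomal protein, tRNA synthetase or listed nucleolar assembly factor was among the named genes tested. Of 8 translation factors and related genes, 2 were higher and 6 did not pass, with a median of 0.070. The higher ones were subunits of the initiation machinery, Eif2b4 of the exchange factor eIF2B (0.29 ± 0.07, adjusted p = 0.00738) and Eif2s1, the regulated alpha subunit of eIF2 (0.24 ± 0.07, adjusted p = 0.0273). After centring 12% of all features were called higher and 16.6% lower. As deposited 5 of the 8 were lower and 0 higher, where 82.2% of all features were called lower and 1.7% higher.

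Among 6 genes of S6 kinase and growth control, Myc, a transcription factor that drives ribosome production, was higher (0.56 ± 0.08, adjusted p = 0.000149), and Rheb, the small GTPase that switches on mTOR, was lower (-0.31 ± 0.08, adjusted p = 0.0102). The genes with Rps6k symbols, which the symbol rule leaves out, did not pass after centring: Rps6kb1 (-0.11 ± 0.08), Rps6kb2 (0.058 ± 0.08) and Rps6ka4 (0.053 ± 0.08). Of 5 RNA-binding proteins, Hnrnpa1, a splicing factor, was higher (0.31 ± 0.08, adjusted p = 0.00745), Pcbp2, which binds C-rich RNA, was lower (-1.20 ± 0.12, adjusted p = 8.12e-06) and 3 did not pass. As deposited, without centring, 5 of the 6 growth control genes and 4 of the 5 RNA-binding proteins were lower and 0 higher. Pcbp2 (-1.58) and Rheb (-0.69) were among the lower ones. So were the Rps6k genes Rps6kb1 (-0.49, adjusted p = 0.00161), Rps6kb2 (-0.32, adjusted p = 0.0112) and Rps6ka4 (-0.33, adjusted p = 0.0156). On that scale 82.2% of all features were called lower. The median of all features was -0.39, and Rps6kb2 and Rps6ka4 lay above it. Myc (0.18), Hnrnpa1 (-0.071), Rack1 (-0.059), Eif2b4 (-0.089) and Eif2s1 (-0.14) did not pass as deposited.

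Transcripts that mark cell types were set beside the members. Of 6 hepatocyte markers, 4 were higher (Apoa1 0.38, Tf 0.37, Ttr 0.26 and Serpina1 0.20), Cyp2e1 was lower (-0.37), and the list had a median of 0.23 and a median dye term of 0.58, beside 0.17 and 0.57 for the members. As deposited 2 of the 6 were lower and none higher. After centring 12% of all features were called higher and 16.6% lower. These 6 genes do not stand for all hepatocyte transcripts. Outside the list, after centring, the enzyme Cyp8b1 was lower (-1.56) and the enzyme Cyp2c22 higher (1.46). Of 4 leukocyte and Kupffer cell markers, 3 were lower (Tnf -0.57, Ccl5 -0.33 and Cd53 -0.27) and none higher, and as deposited all 4 were lower. Spp1, the 1 cholangiocyte marker measured, was at 0.14 and did not pass, and as deposited it was lower (-0.25, adjusted p = 0.0438). Of 3 stellate cell and fibroblast markers, Timp1 was higher (0.35) and Col1a1 lower (-0.23), and of 3 endothelial markers Kdr was lower (-0.33). As deposited Timp1 was at -0.034 and did not pass (adjusted p = 0.771), the other 2 stellate markers were lower, and so were all 3 endothelial markers. On the deposited scale 82.2% of all features were called lower and 1.7% higher, and the median of all features was -0.39. The part of these cell types in the members' values was not tested.

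The genes outside the list whose 4 centred values came nearest were named by the root mean square difference over the 4 arrays, a description that largely reads a shared dye term. For Npm1 they were the nuclear receptors Nr0b2 (0.108) and Nr1h2 (0.120) and the enzyme Cyp2u1 (0.124). For Rpl6 they were Cdh3 (0.062), Chkb (0.086) and Ilk (0.125), for Rpl17-ps16 Chkb (0.089), Orm1 (0.120) and Txn1 (0.121), and for Rpl41 Irf1 (0.046), Dpp4 (0.071) and Ube2b (0.078). The nearest other member was farther in each case, at 0.262 for Npm1 (Rpl6), 0.171 for Rpl6 and Rpl17-ps16 (each other) and 0.164 for Rpl41 (Rps28). Only 11 of the 958 named genes are members, so a nearer gene outside the list was likely in advance. The comparison therefore does not show how alike the members are.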

How the data were processed

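The authors deposited 1 log ratio per probe and array, taken here as log2 of ligation over sham. The labels do not state the scanning, background correction or normalization. Symbols came from the platform's annotation (1432 probes with 1 symbol, 19 with several, 485 unnamed), and all 11 member genes matched RefSeq by gene ID with the same symbol. Each array was centred on its median, and probes of 1 symbol were averaged. Left out as control spots were 288 spots, at 18 positions that have no name in any print block, which left 958 genes and 216 other probes. In limma (3.58.1, R 4.3.3) each feature had a term for ligation and one for the dye, with a prior SD of 0.155 on 10.4 degrees of freedom beside 2 residual ones, and Benjamini-Hochberg adjustment ran over all 1174 features at 0.05. The fit was tried on simulated data with its own prior and dye terms, independent arrays and no shift of the zero point. That run cannot speak to the zero point or to technical repeats. The text names every member, list genes past the threshold and the 3 nearest genes for 4 members. The Rps6k genes and Spp1 were added after their values were seen. The members and lists were chosen with earlier results of these data known. There were 15 planned and 3 added alternatives (upper quartile of the dye term, curve on the dye term, neither centring nor dye term), the added ones chosen after seeing the data.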

Additional observations from a re-analysis of the deposited data

How the results depend on the processing

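Npm1 was higher in each of the 4 fits that left out an array (0.65 to 0.80), and so were Rpl6 (0.44 to 0.50), Rpl17-ps16 (0.31 to 0.61) and Rpl41 (0.31 to 0.33), each past the threshold every time. In those fits 253 to 308 features were called, 96 to 144 higher and 144 to 198 lower, with 4 to 6 members higher and 0 lower. The members' median ran from 0.11 to 0.26 and that of all features from -0.033 to -0.0017. Rpl17 (-0.085 to 0.080) changed sign without array 1 or array 4, and Rpl12 (-0.0088 to 0.095) without array 3. Without centring, 985 features were called instead of 336, 20 of them higher and 965 lower. Then 1 member was higher and 6 were lower, and the medians were -0.21 (members) and -0.39 (all). Rpl6 (0.092) and Rpl17-ps16 (0.081) lost their call, and Rpl41 (-0.060), Rps28 (-0.17), Rpl3 (-0.21), Rpl4 (-0.26), Rpl35a (-0.27), Rps3 (-0.29) and Rpl12 (-0.34) changed sign. Without centring and without the dye term these estimates were the same, with 93 features called, 5 higher and 88 lower, 0 members in either direction, and Npm1 at 0.34 (limma adjusted p = 0.179). With centring but no dye term limma called 0 features (0 higher, 0 lower, 0 members), and Npm1 (0.73), Rpl6 (0.47), Rpl17-ps16 (0.46) and Rpl41 (0.32) had adjusted p from 0.883 to 0.998; 74 features had an unadjusted p under 0.05. Without moderated variances 0 features were called as well (292 unadjusted), and those 4 genes had adjusted p from 0.125 to 0.267. Read as Cy5 over Cy3, 925 features were called, 533 higher and 392 lower, with 8 members higher and 2 lower, medians of 0.57 and 0.10, and Rps3 at -0.49. Centring on named probes, within print blocks or on the upper quartile of the dye term moved the median of all features to 0.020, 0.026 and 0.060 and Rpl17 to 0.031, 0.072 and 0.070. Print-block centring and subtraction of a curve on the dye term called 7 members higher each, where 13.8% and 17.2% of all features were higher, and the upper quartile left 125 features lower. With control positions tested too, 239 features were higher and the median was 0.0090. The cause of these changes was not tested. Rps28 (adjusted p = 0.0549) gained a call in 7 of 17 settings: the Cy5 over Cy3 reading, centring on named probes or within print blocks, the upper quartile, the curve, the fit without array 3 and the averaged dye pairs. Those averages joined array 1 with 2 and array 3 with 4, which the labels do not tie together, and called 398 features (33.9%), with 5 members higher and Rps28 at adjusted p = 0.0235. Each ratio already compares both groups on the same array, so the fit is paired by array. No further replicate block between groups could be added. Signal over background is unknown.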

Other observations

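The 48 unnamed spots at positions 108 to 110 were at 0.68, 0.39, 0.55 and 0.40 on arrays 1 to 4 as deposited, a mean of 0.50, and Npm1 was the member nearest to them (root mean square difference 0.21).

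The letters TATA, searched after the promoters had been seen, occur 40 to 16 bases before the annotated RefSeq start, on the strand of the gene, in 5 of the 10 member genes with a promoter (Npm1, Rps28, Rpl3, Rpl4 and Rpl12), against 5.15% of all 33469 promoters. Of those 5, Npm1 passed the test as higher and the other genes did not pass, at 0.21, 0.17, 0.12 and 0.043 relative to the array median.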
